A study of Mus musculus with 8 samples.

Results

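Accessible regions that lie inside genes, away from both gene ends, were examined in pro-B cells before and after degradation of the transcription factor EBF1. A region was taken as a gene-body region when its centre lay within the span of a protein-coding gene (RefSeq, GRCm38.p6) and more than 1 kb from the start or end of any protein-coding gene. Of the 108949 distinct regions in the authors' deposited tables of both lines, 46973 met this rule. They were 23503 of 54239 regions (43.3%) in EBF1-dTAG_C, with 23640 of 55193 (42.8%) in EBF1-dTAG_N, and 170 of these intervals were identical in both tables. They lay in 8203 genes in EBF1-dTAG_C, with 7994 in EBF1-dTAG_N. The rule used position alone and no measured value. A further 22524 distinct regions lay within 1 kb of a gene start or end, and 39452 lay outside genes.

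The data are ATAC-seq, in which the Tn5 transposase cuts and tags accessible DNA, from mouse pro-B cells transformed by A-MuLV (Abelson murine leukaemia virus). In both lines the endogenous EBF1 was replaced by an exogenous modified gene, EBF1-dTAG_C or EBF1-dTAG_N, so the DMSO controls carry the modified protein as well. Each line received dTAG-13 at 0.5 uM, a compound that directs a dTAG-tagged protein to degradation, or DMSO, its solvent, for 6 h. There were 4 groups of 2 libraries, 8 in all, which the series calls biological replicates. The titles name the DMSO samples 0 h whereas the treatment label gives them DMSO for 6 h, and whether a line is 1 clone is not given in the sources used here. EBF1 protein was not measured.

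Introns of mammalian genes hold many enhancers, stretches of DNA that bind transcription factors and raise transcription from a promoter that may lie far away, in the same gene or in another one. Some genes also have internal promoters, from which shorter transcripts start. EBF1 specifies the B lineage, can bind closed chromatin, and binds as a dimer to the palindrome TCCCNNGGGA.

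Sequence was at hand for windows of 300 bases round annotated RefSeq starts (250 before and 50 after the start), so sequences are shown for gene-body regions that overlap such a window of their own host gene by at least 1 bp. They are called start-window regions here, and the start itself lies inside most of them but not all. A region is said to fall or rise when the adjusted p-value in the authors' deposited table was under 0.05. Of all regions 6.62% fell in EBF1-dTAG_C and 18.5% did so in EBF1-dTAG_N. The motif TCCCNNGGGA reads the same on both strands, so 1 search covers both. It occurred in 297 of all 32851 windows (0.904%). In EBF1-dTAG_N it occurred in 8 of the 64 windows (12.5%) overlapped by a region that fell and in 12 of 1092 (1.1%) overlapped by regions that did not fall. The EBF1-dTAG_C numbers were 2 of 18 (11.1%) and 16 of 1135 (1.41%). The core CCCNNGGG, which every TCCCNNGGGA contains, occurred in 13.7% of all windows, in 28 of the 64 falling and 21.8% of the other windows in EBF1-dTAG_N, and in 9 of 18 and 22.1% in EBF1-dTAG_C. In each of the 8 falling EBF1-dTAG_N windows the motif lay inside the region itself. It also did so in the 12 that did not fall, except at Trmt11, Rnh1 and Arvcf. Among those 12, the windows of Ifitm10 share the same motif and region. A match of letters does not show that EBF1 bound there. Of each sequence 270 bases are printed, 250 before the start and 20 from it, on the strand of the gene (RefSeq, GRCm38.p6), with TCCCNNGGGA in capitals. The first 4 are the motif-holding windows with the smallest adjusted p in EBF1-dTAG_N, the fifth fell in both lines without the motif, and the last holds the motif and was called in neither line. They were chosen after their values had been seen.
Cd22, chr7:30879009-30879278, minus strand: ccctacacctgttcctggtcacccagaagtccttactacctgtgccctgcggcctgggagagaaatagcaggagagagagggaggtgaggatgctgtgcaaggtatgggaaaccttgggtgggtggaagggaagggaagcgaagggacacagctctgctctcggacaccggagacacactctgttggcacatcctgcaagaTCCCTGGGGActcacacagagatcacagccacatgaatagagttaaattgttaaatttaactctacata
Chst3, chr10:60219241-60219510, minus strand: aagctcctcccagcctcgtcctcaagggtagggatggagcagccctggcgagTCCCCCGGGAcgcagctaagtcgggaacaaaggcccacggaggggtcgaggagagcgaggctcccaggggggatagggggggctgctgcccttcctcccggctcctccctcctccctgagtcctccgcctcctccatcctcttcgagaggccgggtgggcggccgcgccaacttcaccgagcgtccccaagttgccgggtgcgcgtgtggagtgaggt
Tbc1d1, chr5:64160010-64160279, plus strand: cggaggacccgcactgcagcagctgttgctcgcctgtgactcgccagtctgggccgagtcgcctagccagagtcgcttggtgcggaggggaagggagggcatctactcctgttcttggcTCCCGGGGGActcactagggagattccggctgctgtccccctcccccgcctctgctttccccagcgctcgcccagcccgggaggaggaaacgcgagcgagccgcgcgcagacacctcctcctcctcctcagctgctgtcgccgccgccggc
Gm31493, chr1:160003652-160003921, minus strand: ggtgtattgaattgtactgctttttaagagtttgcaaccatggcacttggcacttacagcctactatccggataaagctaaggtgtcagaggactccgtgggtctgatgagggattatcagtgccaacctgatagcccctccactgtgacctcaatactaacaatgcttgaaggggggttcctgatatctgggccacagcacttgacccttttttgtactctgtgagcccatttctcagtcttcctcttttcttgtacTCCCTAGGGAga
Kcnk13, chr12:99964249-99964518, plus strand: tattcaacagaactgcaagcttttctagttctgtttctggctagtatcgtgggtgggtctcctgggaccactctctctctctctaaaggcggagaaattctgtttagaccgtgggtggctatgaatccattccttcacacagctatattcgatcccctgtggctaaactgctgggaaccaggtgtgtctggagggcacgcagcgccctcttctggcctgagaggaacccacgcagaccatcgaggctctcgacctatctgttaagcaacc
Nxpe3, chr16:55895260-55895529, minus strand: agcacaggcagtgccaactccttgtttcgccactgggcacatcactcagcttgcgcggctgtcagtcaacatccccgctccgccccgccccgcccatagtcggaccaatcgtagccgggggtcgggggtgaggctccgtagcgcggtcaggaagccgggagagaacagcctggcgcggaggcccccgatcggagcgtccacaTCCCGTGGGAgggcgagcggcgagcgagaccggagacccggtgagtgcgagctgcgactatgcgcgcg
The region over the internal start of Cd22, an inhibitory co-receptor of B cells, had peak fold enrichments of 29.4 and 25.9 in the EBF1-dTAG_C DMSO lists, 8.56 in 1 dTAG-13 list and no peak in the other. Fold enrichment is the authors' value for a peak's summit, relative to the background round it in that library. In EBF1-dTAG_N the values were 28.0 and 31.3 with DMSO against 15.1 and 9.03 after dTAG-13, so the dTAG-13 lists were lower in both lines. The authors' deposited tables gave a 3.75-fold lower value in EBF1-dTAG_C (adjusted p = 5.65e-04) and a 2.94-fold lower one in EBF1-dTAG_N (adjusted p = 7.78e-20). Chst3 encodes a sulfotransferase that acts on chondroitin, and its region read 7.62 and 6.04 against no peak and 4.42 in EBF1-dTAG_N. It fell 1.66-fold there by the authors' deposited table (adjusted p = 1.10e-07), whereas the 1.55-fold lower value in EBF1-dTAG_C did not pass (adjusted p = 0.0649). At the internal start of Tbc1d1, a GTPase-activating protein for Rab proteins, the EBF1-dTAG_N values were 14.2 and 15.2 against 7.01 and 7.59. The authors' deposited table of that line gave a 1.5-fold fall (adjusted p = 2.12e-07), and that of EBF1-dTAG_C 1.45-fold lower (adjusted p = 0.0916, not called). The region of the gene model Gm31493 fell 10.0-fold and 7.74-fold by the authors' deposited tables of EBF1-dTAG_C and EBF1-dTAG_N. It read 9.38 and 9.55 with DMSO in EBF1-dTAG_C, but 11.8 and no peak in EBF1-dTAG_N, and had no dTAG-13 peak in either line. The region at Kcnk13, a potassium channel, fell 2.59-fold and 2.73-fold by the authors' deposited tables without a match to either motif in its window. That at Nxpe3 read 22.6 and 19.6 with DMSO against 15.2 and 19.3 after dTAG-13 in EBF1-dTAG_N, where the groups do not overlap. The authors' deposited table nevertheless put it at 1.00-fold (adjusted p = 0.995).

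The cell type was checked by accessibility within 1 kb of the ends of marker genes in both DMSO lists of a line. Such a peak was present for 10 of 14 pro-B markers in EBF1-dTAG_C, with 12 of 14 in EBF1-dTAG_N, among them Cd79a, Pax5 and Vpreb1. Dntt and Kit lacked one in both lines, and Rag1 and Rag2 in EBF1-dTAG_C. Of 18 T and innate lymphoid markers, 0 had one in EBF1-dTAG_C, with 3 in EBF1-dTAG_N (Tcf7 and Cd28 among them). Of 16 myeloid markers, 4 and 2 had one, with Fcgr3 and Tyrobp in both lines. The number of reads per library is unknown. The lowest background pileup, solved from the authors' fold enrichments and −log10 p-values, served as a measure of relative depth. It was 0.331 and 0.344 with DMSO against 0.229 and 0.258 after dTAG-13 in EBF1-dTAG_C, and 0.401 and 0.408 against 0.348 and 0.372 in EBF1-dTAG_N. The dTAG-13 libraries were thus the shallower ones in both lines, and the part of depth in the numbers of peaks per library was not tested.

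More gene-body regions lost than gained accessibility in both lines. In EBF1-dTAG_C 1887 gene-body regions fell (8.03%), against 6.62% of all regions of the table, and 85 rose (0.362%), against 0.308% of all. In EBF1-dTAG_N 5227 fell (22.1%), against 18.5% of all, and 3932 rose (16.6%), against 18.8% of all. The p-values of EBF1-dTAG_N pool the spread over regions and their calls are not comparable in number with those of EBF1-dTAG_C. The median log2 fold change of the falling gene-body regions was -2.31 in the authors' deposited table of EBF1-dTAG_C and -2.13 in that of EBF1-dTAG_N. Rising regions had medians of 1.03 and 0.79 there. Counting only changes of 1 or more on the log2 scale, 1765 fell and 47 rose in EBF1-dTAG_C, and 4367 fell and 1404 rose in EBF1-dTAG_N. Among all 54239 regions of EBF1-dTAG_C, 3324 fell and 76 rose by that limit. The counts over all regions of EBF1-dTAG_N by that limit are not given here. Its 4367 and 1404 are therefore not read as particular to gene bodies. The whole tables had median log2 fold changes of 0.09 and 0.17. With folds centred on these medians, 2088 gene-body regions fell and 46 rose in EBF1-dTAG_C, beside 7.39% and 0.162% of all regions. In EBF1-dTAG_N 24.4% fell and 8.68% rose, beside 20.8% and 7.98% of all regions.

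Gene bodies resembled the space outside genes and differed from gene ends. Within 1 kb of a gene end 2.11% of regions fell in EBF1-dTAG_C, with 6.89% in EBF1-dTAG_N, and outside genes 7.54% and 20.7%. The 95% Wilson interval of the gene-body share, which covers counting error only, was 7.69% to 8.38% in EBF1-dTAG_C. Regions near gene ends rose more often in EBF1-dTAG_N (27.1%), but with centred folds only 4.37% rose there against 8.68% of gene-body regions. The classes differed in abundance, with a median of 1.99 log2 CPM in gene bodies against 4.95 near gene ends in EBF1-dTAG_C. Quintiles of mean abundance were cut on the gene-body regions of each line, and their limits were applied to the other classes. Above the lower limit of the top quintile, 13.6% of gene-body regions fell in EBF1-dTAG_C against 1.63% near gene ends and 15% outside genes. In EBF1-dTAG_N these shares were 30.3%, 5.11% and 31.7%. Abundance was not matched by this, with medians above that limit of 4.77, 5.53 and 4.73 log2 CPM in EBF1-dTAG_C. At the limit of the rule, the 200 gene-body regions closest to 1 kb from a gene end included 6 falls in EBF1-dTAG_C, with 27 in EBF1-dTAG_N. The 200 just short of that distance included 11 and 34.

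Within gene bodies the start-window regions of the host gene stood apart, as the plot of shares by position shows. Of 1033 in EBF1-dTAG_C, 18 fell (1.74%), against 8.32% of the 22319 regions that overlapped no start window. In EBF1-dTAG_N 63 of 1035 fell (6.09%) and 300 rose (29.0%), against 22.9% and 16% of 22465 regions without a window. With centred folds 10.3% of the EBF1-dTAG_N start-window regions fell and 5.41% rose. Where the start base itself lay inside the region, 14 of 948 fell in EBF1-dTAG_C (1.48%), beside 54 of 955 in EBF1-dTAG_N (5.65%). Regions that overlapped the window of another gene only did not stand apart in this way, with 11 of 151 falling in EBF1-dTAG_C (7.28%), beside 16.4% of 140 in EBF1-dTAG_N. Start-window regions of the host gene were more abundant, with a median of 5.08 log2 CPM in EBF1-dTAG_C against 1.91. Within the most abundant quintile of gene-body regions the shares falling were 1.73% against 16.2% in EBF1-dTAG_C and 5.45% against 35.4% in EBF1-dTAG_N. Median abundance still differed there, at 5.49 against 4.62 log2 CPM in EBF1-dTAG_C. Start windows were at hand for 79.9% of protein-coding genes, so regions at some internal starts are counted among those without a window.

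**Figure D1:**
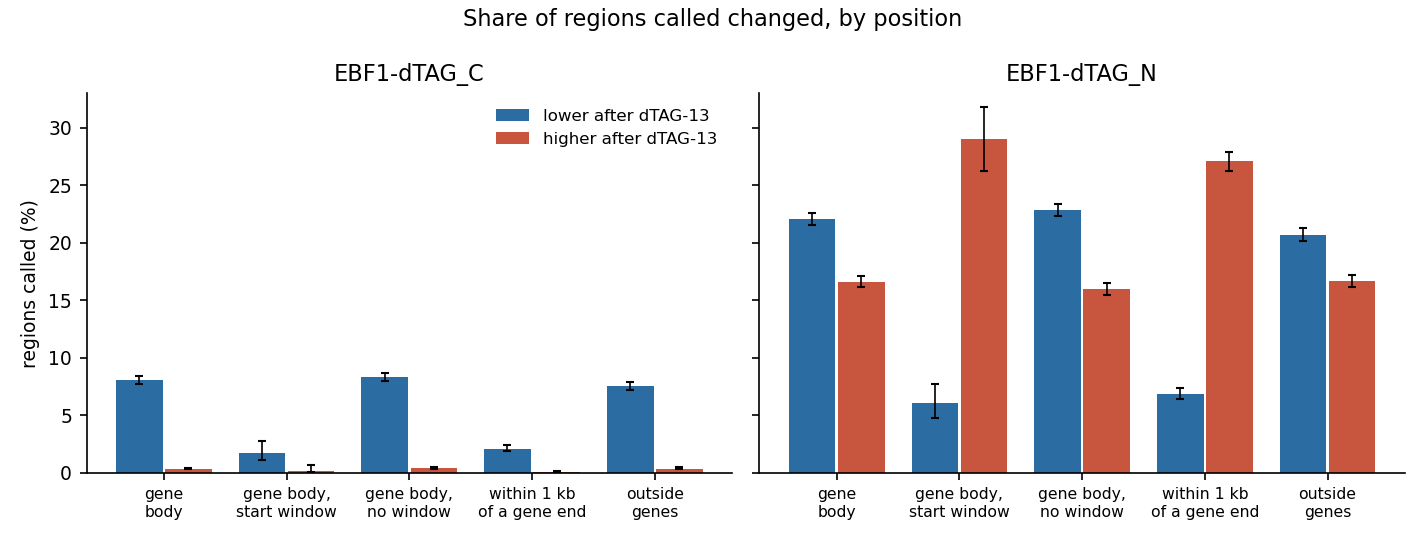
Share of regions called lower (blue) or higher (red) after dTAG-13 at a deposited adjusted p under 0.05, in percent of the regions in each position class, with 95% Wilson intervals that cover counting error only. Falling regions make up 8.03% of gene-body regions in EBF1-dTAG_C but 1.74% of those that overlap a start window of the host gene, near the 2.11% of regions within 1 kb of a gene end.

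All 18 start-window regions that fell in EBF1-dTAG_C overlapped a falling region in EBF1-dTAG_N. In S100a3, a calcium-binding protein, the region overlapped a start window but ended short of the start in EBF1-dTAG_C, and both lines had peaks with DMSO (8.27 and 7.24, and 10.3 and 9.95) and none after dTAG-13. The authors' deposited tables gave falls of 7.12-fold in EBF1-dTAG_C and 11.5-fold in EBF1-dTAG_N. A region of Apbb1, an adaptor that binds the amyloid precursor protein, likewise reached a start window but not the start in EBF1-dTAG_C. It showed the same loss from 14.8 and 9.18, and from 27.2 and 22.5, to no peak in any dTAG-13 list. It fell 10.8-fold and 15-fold by the authors' deposited tables. The region of Niban3, a gene expressed in B cells, read 14.3 and 14.4 with DMSO against 5.07 and no peak in EBF1-dTAG_C. In EBF1-dTAG_N it read 17.2 and 17.9 against no peak in either list, and the authors' deposited tables gave falls of 7.5-fold and 13.1-fold. The region of Adgrg1, an adhesion G protein-coupled receptor, fell 3.02-fold and 2.93-fold by the authors' deposited tables, although its fold enrichments overlapped between the groups in both lines. Smaller falls were seen at Ptpa, an activator of phosphatase 2A (2.08-fold and 2.18-fold) and Tgif1, a homeobox repressor (1.61-fold and 1.58-fold), by the authors' deposited tables.

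The share of falling regions was slightly higher in longer genes. From genes under 20 kb to genes over 200 kb the 5 length classes had 7.11%, 8.18%, 8.03%, 7.54% and 8.88% of regions falling in EBF1-dTAG_C. In EBF1-dTAG_N they had 19.3%, 21.7%, 22.7%, 21.8% and 23.8%. The longest class exceeded the shortest by 1.76 percentage points in EBF1-dTAG_C (95% Newcombe interval 0.484 to 2.99) and by 4.48 points in EBF1-dTAG_N (2.58 to 6.35). These intervals cover counting error only, since regions of a gene and of a library share their source. Distance from the nearer gene end gave a steadier order. In the classes of 1 to 5, 5 to 20, 20 to 50, 50 to 100 and over 100 kb, 7.35%, 7.85%, 8.21%, 8.85% and 9.19% of regions fell in EBF1-dTAG_C. The shares in EBF1-dTAG_N were 19.9%, 21.8%, 23.2%, 23.3% and 25%. Regions over 50 kb from a gene end exceeded those at 1 to 5 kb by 1.63 points in EBF1-dTAG_C (0.510 to 2.77) and by 3.99 points in EBF1-dTAG_N (2.31 to 5.68).

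Abundance fell with distance, from a median of 2.73 log2 CPM at 1 to 5 kb to 1.65 over 100 kb in EBF1-dTAG_C. In the most abundant quintile 9.29% of regions at 1 to 5 kb and 23.8% of those over 100 kb fell in EBF1-dTAG_C, with 21.1% and 39.8% in EBF1-dTAG_N. By gene length the shares in that quintile went from 8.12% under 20 kb to 16.8% over 200 kb in EBF1-dTAG_C and from 19.0% to 36.5% in EBF1-dTAG_N. Within that quintile abundance still differed, with medians of 4.93 log2 CPM at 1 to 5 kb and 4.51 over 100 kb in EBF1-dTAG_C, and the other quintiles were not split by distance. Regions that overlapped no start window were 4420 of 5009 at 1 to 5 kb and 1557 of 1577 over 100 kb in EBF1-dTAG_C. Among regions that overlapped no start window of any gene, the differences over all abundances were 0.938 points by distance and 1.15 by length in EBF1-dTAG_C. In EBF1-dTAG_N they were 2.46 and 3.09. No interval was computed for these differences. The Wilson intervals of the EBF1-dTAG_C shares overlapped, at 6.85% to 8.97% under 20 kb and 8.21% to 9.84% over 200 kb. They also overlapped between 1 to 5 kb (7.33% to 8.94%) and over 100 kb (7.97% to 10.9%) from a gene end. The most abundant quintile was also taken without the regions that overlapped a start window of any gene. In EBF1-dTAG_C 12.5% then fell at 1 to 5 kb, 18.3% at 5 to 20 kb and 15.1% at 20 to 50 kb. At 50 to 100 kb 16.9% fell, and over 100 kb 25% did. In EBF1-dTAG_N the shares in these classes were 27.5%, 39.4%, 36%, 38.6% and 41.4%, so most of the step lay between the first 2 there.

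**Figure D2:**
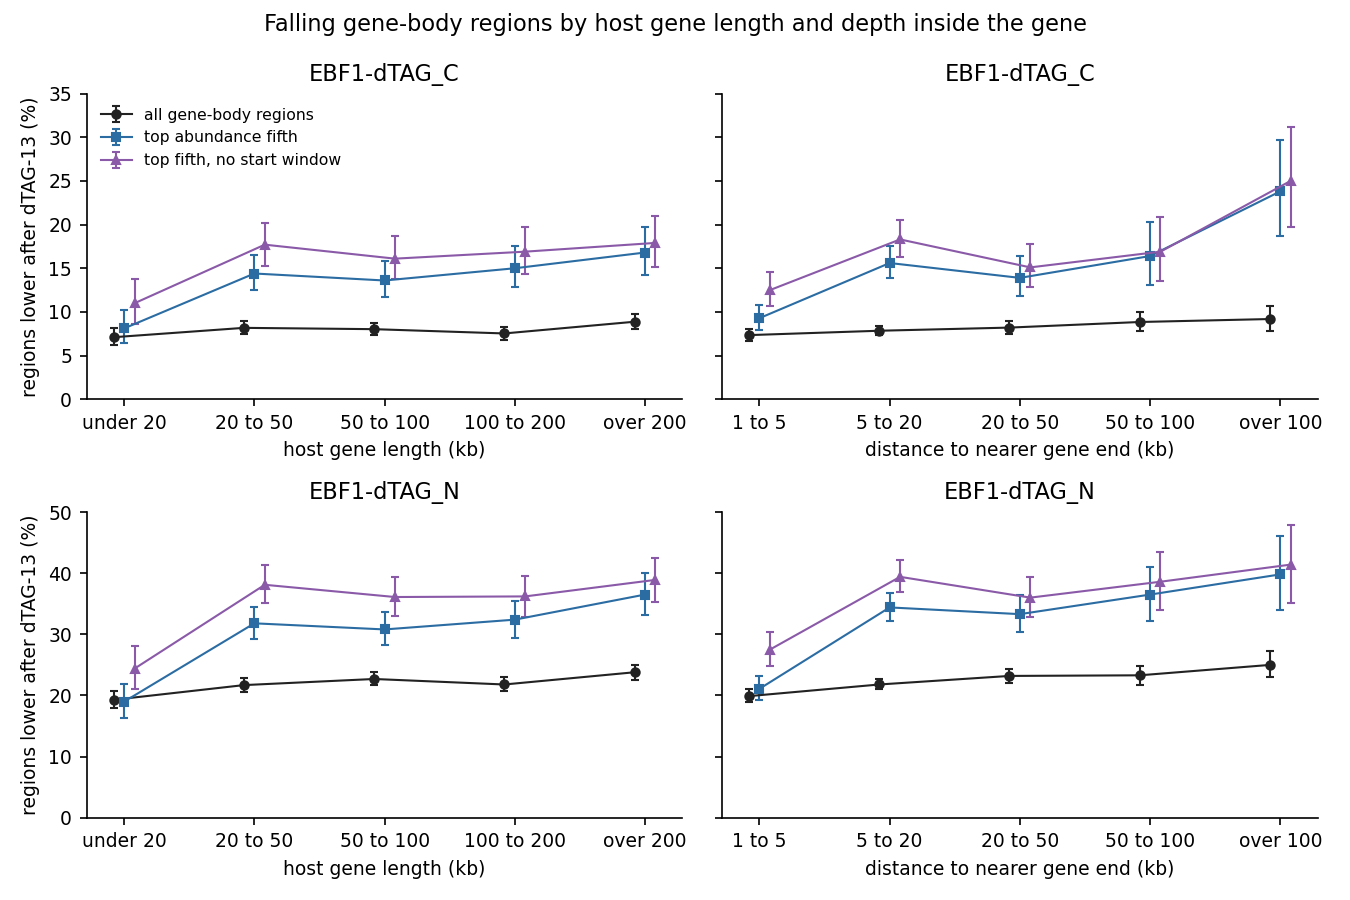
Percent of gene-body regions that fell by host gene length (left) and by distance to the nearer gene end (right). Black marks all regions and blue the quintile of regions with the highest mean abundance. Purple marks that quintile without regions that overlap a start window of any gene. The 95% Wilson intervals cover counting error only. In the top quintile of EBF1-dTAG_C the share is 9.29% at 1 to 5 kb and 23.8% over 100 kb, whereas over all regions it is 7.35% and 9.19%.

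Long genes alone hold far regions, so both measures were crossed. In genes over 200 kb the share falling in EBF1-dTAG_C was 7.34% at 1 to 5 kb, 10.3% at 5 to 20 kb, 7.82% at 20 to 50 kb, 8.91% at 50 to 100 kb and 9.19% beyond, with overlapping Wilson intervals. In EBF1-dTAG_N it was 19.3%, 22.0%, 22.2%, 24.8% and 25%. At 1 to 5 kb from a gene end, genes under 20 kb had 7.30% falling and genes over 200 kb 7.34% in EBF1-dTAG_C, with 18.8% and 19.3% in EBF1-dTAG_N. The length classes between them ranged from 5.72% to 7.95% and from 19.5% to 23.0%. Position along the gene, known where a strand could be assigned (79.8% of regions in EBF1-dTAG_C), gave little difference. In 5 equal stretches from start to end 7.24%, 8.13%, 8.28%, 8.24% and 7.70% of regions fell in EBF1-dTAG_C. The same stretches gave 19.6%, 22.4%, 22.5%, 22.0% and 22.6% in EBF1-dTAG_N.

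Regions were sparser in long genes. EBF1-dTAG_C had 30.9 gene-body regions per Mb of gene span in genes under 20 kb, 33.8 at 20 to 50 kb, 31.4 at 50 to 100 kb, 24.7 at 100 to 200 kb and 11.3 in genes over 200 kb, and EBF1-dTAG_N 31.2, 33.7, 31.9, 24.6 and 11.5. In short genes much of the span lies within 1 kb of a gene end, where no region is counted. Falls per Mb of gene span were likewise fewer, 2.2 in genes under 20 kb and 1.01 in genes over 200 kb in EBF1-dTAG_C, and 6.02 and 2.73 for EBF1-dTAG_N. Long genes held more regions each, with a median of 1 under 20 kb in both lines and of 4 (EBF1-dTAG_C) and 5 (EBF1-dTAG_N) over 200 kb, and more often held at least 1 falling region. Of genes with any gene-body region, 9.05% of those under 20 kb and 35.2% of those over 200 kb held a fall in EBF1-dTAG_C, with 24.0% and 59.1% in EBF1-dTAG_N.

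The falling regions farthest from any gene end lay in very long genes. Called in both lines, the farthest was in Fhit, a tumour suppressor gene at a fragile site, at chr14:10025860-10026205 and 476 kb from the nearer gene end. It had peaks of 8.18 and 9.56 in the EBF1-dTAG_C DMSO lists, of 10.6 and 7.85 in those of EBF1-dTAG_N, and none after dTAG-13. The authors' deposited tables gave falls of 21.4-fold (adjusted p = 0.00339) and 56.9-fold (adjusted p = 7.57e-12). A region of Auts2 at chr5:131853287-131853599, 416 kb from a gene end, had values of 12.5 and 6.76, and 10.6 and 12.9, with DMSO and again no dTAG-13 peak. It fell 11.4-fold and 10.8-fold by the authors' deposited tables. The EBF1-dTAG_C abundances of the Fhit and Auts2 regions, 1.65 and 1.24 log2 CPM, lay below the gene-body median of 1.99. In Wwox, another fragile-site gene, the region at chr8:114803123-114803536 kept its peaks at a lower level. It read 21.5 and 19.4 against 13.2 and 13.5 in EBF1-dTAG_C, and 19.0 and 22.2 against 12.4 and 14.3 in EBF1-dTAG_N, with no overlap of the groups. The falls of this region were 2.01-fold and 2.62-fold by the authors' deposited tables. Also far from a gene end, Ctnnd2 (delta-catenin) and Opcml (a cell adhesion protein) held falling regions 384 and 299 kb from a gene end. They had peaks in both DMSO lists and in no dTAG-13 list in either line. The falls were 2.70-fold (adjusted p = 0.0497, just under the limit) and 4.18-fold (adjusted p = 0.00748) by the authors' deposited table of EBF1-dTAG_C.

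The longest genes with at least 5 regions in each table did not share 1 pattern. Cntnap2 (2241 kb) and Lsamp (2197 kb), both neuronal adhesion genes, held 5 regions each in EBF1-dTAG_C, with 9 and 5 in EBF1-dTAG_N, none of which fell or rose. In Dlg2, a synaptic scaffold gene of 1973 kb, 2 of 9 and 5 of 8 regions fell. Pde4d, a cyclic AMP phosphodiesterase gene of 1302 kb, had 0 of 12 falling in EBF1-dTAG_C, and 1 of 10 falling and 2 rising in EBF1-dTAG_N. Opcml had 1 of 12 and 4 of 8 falling, and Anks1b 1 of 5 and 1 of 6.

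Most genes with a falling region held only 1. Many genes could hold no more, since 3606 of 8203 host genes in EBF1-dTAG_C had a single gene-body region, with 3501 of 7994 in EBF1-dTAG_N. In EBF1-dTAG_C 1396 genes (17.0% of those with a gene-body region) held a fall, and 1077 of them exactly 1. In EBF1-dTAG_N 2960 genes (37.0%) did, 1878 of them with exactly 1. Falling and rising regions occurred together in 20 genes in EBF1-dTAG_C and in 1049 in EBF1-dTAG_N. Of the genes with 5 or more regions, all fell in 1 gene in each table. This was Pax7, a transcription factor of muscle stem cells, in EBF1-dTAG_C (6 of 6, median log2 fold change -4.02 in the authors' deposited table) and Bckdha, a subunit of the branched-chain ketoacid dehydrogenase, in EBF1-dTAG_N (5 of 5, median -1.65 in the authors' deposited table).

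The genes with most falling regions in both tables were Col26a1, Msi2, Zmiz1, Cmip, Prkce and Tns3. In Col26a1, a collagen gene of 142 kb, 9 of 21 regions fell in EBF1-dTAG_C, with 13 of 22 in EBF1-dTAG_N, and none rose. Msi2, an RNA-binding protein of stem and progenitor cells, had 8 of 28 and 19 of 42 falling, with 3 rising in EBF1-dTAG_N. Zmiz1, a transcriptional co-activator, had 6 of 33 and 14 of 36 falling, with 6 rising in EBF1-dTAG_N. Cmip, an adaptor protein, had 6 of 16 and 10 of 18, and none rose. Prkce, protein kinase C epsilon, had 6 of 31 and 9 of 34, with 7 rising in EBF1-dTAG_N, and Tns3, a tensin of focal adhesions, 6 of 21 and 8 of 22, with 2 rising. Falling regions thus stood beside regions that were not called, or in EBF1-dTAG_N rose, in each of the 6 genes.

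**Figure D3:**
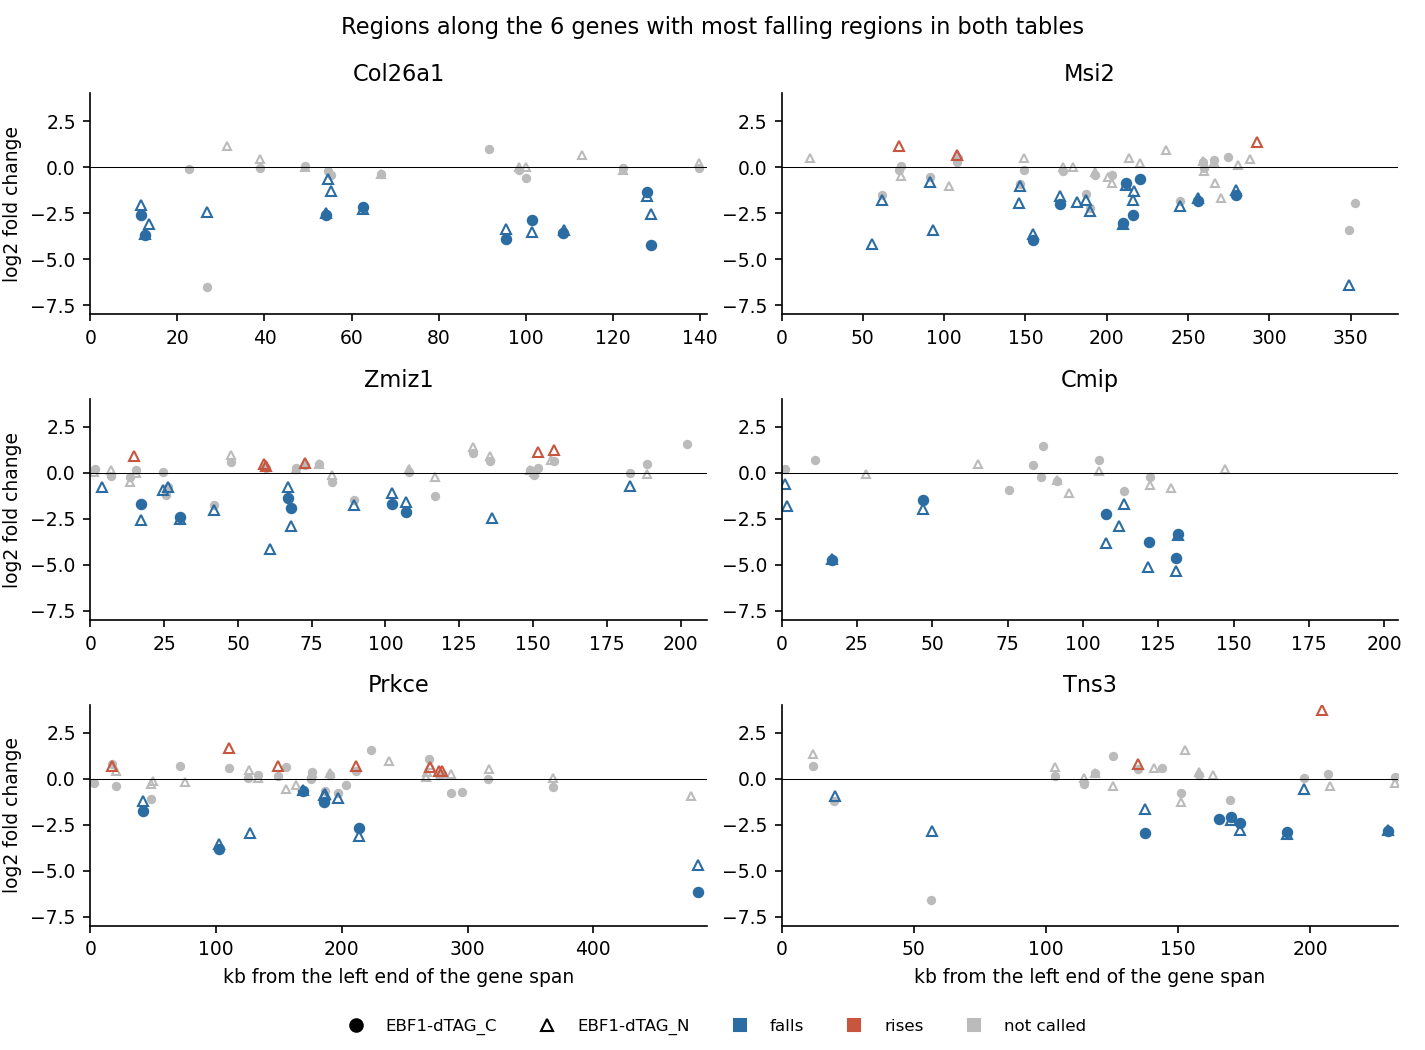
Log2 fold change (dTAG-13 over DMSO, the authors' deposited tables) of each gene-body region against its position from the left end of the gene span in kb, in the 6 genes with most falling regions in both tables, with circles for EBF1-dTAG_C and triangles for EBF1-dTAG_N. Falling regions (blue) lie among regions that were not called (grey) or rose (red), for example 9 of 21 falling in Col26a1 in EBF1-dTAG_C.

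Single regions of these genes lost their peaks. The region of Cmip with the smallest adjusted p, at chr8:117387657-117388047, read 13.3 and 11.9, and 20.4 and 19.1, in the DMSO lists and had no peak after dTAG-13. It fell 24.5-fold in EBF1-dTAG_C and 40.2-fold in EBF1-dTAG_N by the authors' deposited tables. The Prkce region at chr17:86651132-86651520 went from 9.09 and 17.5, and 19.1 and 17.9, to no peak, and the authors' deposited tables gave 71.5-fold and 26.3-fold falls. The region of Msi2 at chr11:88493815-88494183 likewise had DMSO values of 18.5 and 23.0, and 22.3 and 18.2, with no dTAG-13 peak. Its falls were 15.6-fold and 12.5-fold by the authors' deposited tables. The Tns3 region at chr11:8601524-8601886 kept peaks of 5.90 and 5.90, and 8.77 and 8.73, after dTAG-13, against 21.6 and 19.7, and 21.7 and 23.0, with DMSO. For Col26a1 at chr5:136753141-136753650 both dTAG-13 fold enrichments of EBF1-dTAG_N, the higher of them 21.2, lay above the DMSO values of 19.6 and 18.5. The authors' deposited table of that line still gave a 4.12-fold fall, so the peak value at the summit and the fitted fold differed for this region.

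Neighbouring regions within a gene fell together more often the closer they lay. Under 2 kb apart, 24.3% of the neighbours of a falling region fell in EBF1-dTAG_C, against 8.58% of the neighbours of other regions. In EBF1-dTAG_N the shares were 44.1% and 21.4%. At 2 to 10 kb they were 14.9% and 9.24%, and 29.9% and 23.0%. Over 10 kb apart they were 8.48% and 7.49%, and 24.6% and 20.3%. Rising regions were rarer beside a fall, with 11.4% against 21.5% of neighbours under 2 kb apart in EBF1-dTAG_N.

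The gene-body regions with the smallest adjusted p were led by losses. In EBF1-dTAG_C the first 6 falling genes were Adap1, Kank1, Cyth4, Zhx2, Ccm2 and Tmem108, and the overlapping region fell in EBF1-dTAG_N for each. Cyth4, a cytohesin that activates Arf GTPases in blood cells, had a region at chr15:78605368-78605898 with values of 29.2 and 30.4 with DMSO against no peak and 7.21 after dTAG-13. In EBF1-dTAG_N it read 32.0 and 32.3 against 4.91 and 9.80, and the authors' deposited tables gave falls of 13.2-fold and 17.7-fold. The region of Zhx2, a zinc finger and homeobox protein, at chr15:57809721-57810145 read 27.6 and 25.8 against no peak and 6.37. It fell 17.0-fold and 17.3-fold by the authors' deposited tables. In Ccm2, a scaffold protein first known from cerebral vessels, the region at chr11:6581531-6581929 went from 24.6 and 24.5 to no peak. The authors' deposited tables gave 34.1-fold and 22.3-fold falls. Kank1, a regulator of actin, retained peaks of 11.7 and 12.3 after dTAG-13 against 31.8 and 28.0, and fell 8.30-fold by the authors' deposited table of EBF1-dTAG_C.

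In EBF1-dTAG_N the first 6 were Lhpp, Pcnx3, Rftn1, Iqsec1, Rad51b and Crb2, all of which fell in EBF1-dTAG_C too. The wide region of Lhpp, a phosphatase, had overlapping fold enrichments in EBF1-dTAG_N, 9.63 and 10.3 with DMSO against 8.55 and 11.0 after dTAG-13, beside a 5.67-fold fall by the authors' deposited table. Rftn1 encodes raftlin, a lipid raft protein of B cells. Its region at chr17:50182419-50183017 read 23.2 and 23.8 against 7.65 and 9.98 in EBF1-dTAG_N and 28.2 and 25.1 against 9.84 and 11.3 in EBF1-dTAG_C. The authors' deposited tables gave 8.73-fold and 6.68-fold falls. The region of Rad51b, a gene of homologous recombination, lay at chr12:79838248-79838850 and lost its peaks in both lines, from 19.0 and 17.8, and 17.6 and 16.2. It fell 9.01-fold in EBF1-dTAG_N and 6.85-fold in EBF1-dTAG_C by the authors' deposited tables. The region of Iqsec1, an exchange factor for Arf6, lay 105 kb inside its gene and went from 16.7 and 17.5, and 18.9 and 17.3, to no peak (7.51-fold and 7.87-fold by the authors' deposited tables).

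Rising regions had smaller folds in the median, as given above. Besides Rapgef1, Septin9 and Usp3, the first 6 in EBF1-dTAG_C were Ppp1r18, Slc39a14 and Vps8. Ppp1r18, an actin-binding partner of protein phosphatase 1, had a region at chr17:35870183-35870833 with values of 9.66 and 11.0 with DMSO against 17.8 and 17.9 after dTAG-13. In EBF1-dTAG_N it read 9.41 and 9.84 against 15 and 17.5, and it rose 1.44-fold and 1.38-fold by the authors' deposited tables. The region of Slc39a14, a zinc transporter, overlapped between the groups in EBF1-dTAG_C (no peak and 13.2 against 9.20 and 9.55), and rose 3.35-fold and 2.60-fold by the authors' deposited tables. That of Vps8, an endosomal tethering protein, also overlapped in EBF1-dTAG_C and rose 1.72-fold and 2.05-fold by the authors' deposited tables. Rapgef1 was not called in EBF1-dTAG_N (adjusted p = 0.320 in the authors' deposited table). The first 6 rises of that line were 4.22-fold in Tpcn1, 4.18-fold in Slc39a10, 2.79-fold in Septin9, 2.2-fold in Arhgef2, 1.77-fold in Axin1 and 1.52-fold in Gfod1, by the authors' deposited table. Axin1 is a scaffold of the beta-catenin destruction complex. The overlapping regions of Slc39a10, Septin9, Axin1 and Gfod1 rose in EBF1-dTAG_C too, while those of Tpcn1 (adjusted p = 0.124) and Arhgef2 (adjusted p = 0.109) were not called in the authors' deposited table of that line.

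Both lines were compared over 17787 pairs of overlapping gene-body regions. Of the EBF1-dTAG_C falls, 1811 (96.0%) overlapped a fall in EBF1-dTAG_N, whereas 1807 (34.6%) of the longer list of EBF1-dTAG_N falls overlapped one in EBF1-dTAG_C. For rises the overlap was 65 EBF1-dTAG_C regions, 76.5% of that list and 1.68% of the EBF1-dTAG_N list. No pair (0) was called in opposite directions. These overlaps were not counted over all regions, so whether they are particular to gene bodies was not tested. Of the pairs that fell in EBF1-dTAG_N alone, 95.2% had a negative fold in the authors' deposited table of EBF1-dTAG_C. Of those that rose in EBF1-dTAG_N alone, 91.2% had a positive one there. Across pairs of regions, Pearson's r of the log2 fold changes was 0.84 and Spearman's coefficient 0.69. The lines have separate control libraries, and regions of 1 library are not independent replicates.

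**Figure D4:**
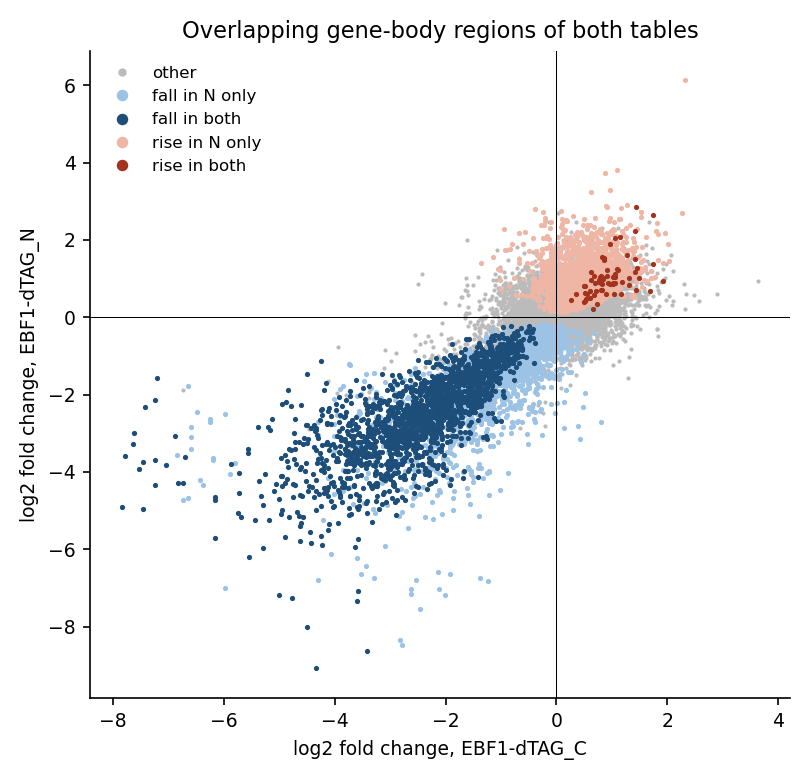
Log2 fold changes (dTAG-13 over DMSO) of 17787 pairs of overlapping gene-body regions in the authors' deposited tables of EBF1-dTAG_C (x axis) and EBF1-dTAG_N (y axis), coloured by the calls, with grey for pairs not called in EBF1-dTAG_N and any called in EBF1-dTAG_C alone. Pairs that fall in both lines extend along the lower left, and 0 pairs are called in opposite directions.

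Many falling regions were those whose peaks were lost. In EBF1-dTAG_C 2355 gene-body regions had a peak with DMSO in each replicate but none after dTAG-13, and 44.1% of them fell. They made up 10.0% of gene-body regions and 55.1% of the falls there. Such regions were 8.46% of all regions and 54.0% of all falls in that line, and 9.71% and 53.7% outside genes. The share of falls was thus close to that of the whole table. Among the 8428 gene-body regions with a peak in all 4 lists, 5.43% fell and 0.736% rose. In EBF1-dTAG_N 83.4% of 2933 lost regions fell, and they made up 46.8% of the falls. Of 9062 regions with a peak in all 4 lists 15% fell and 27.3% rose. These EBF1-dTAG_N shares are not set beside those of all its regions and are not read as particular to gene bodies.

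The peak lists give the 1 measure with a value per library. Gene-body peaks, counted by summit, numbered 16617 and 17423 with DMSO and 13552 and 13418 with dTAG-13 in EBF1-dTAG_C. In EBF1-dTAG_N they numbered 17002 and 16361 against 13953 and 15906. Both dTAG-13 lists were below both DMSO lists in each line. The means were 17020 ± 570 against 13485 ± 94.8 (SD, n = 2) in EBF1-dTAG_C, a change of -20.8%. They were 16682 ± 453 against 14930 ± 1381 (SD, n = 2) in EBF1-dTAG_N, a change of -10.5%. As a share of all peaks they went from 41.1% and 41.3% to 39.4% and 39.2% in EBF1-dTAG_C, and from 40.9% and 40.7% to 38.9% and 40.0% in EBF1-dTAG_N. The number of peaks near gene ends changed by -5.4% and -3.23%, and that of peaks outside genes by -20.7% and -7.33%. All peaks together changed by -16.9% and -7.59%, so a loss of this size in EBF1-dTAG_C was not particular to gene bodies. For gene-body peaks an exact permutation test (two-sided) gave p = 0.33 within each line, the smallest that 2 libraries against 2 allow. With labels permuted within lines over both lines the exact permutation test gave p = 0.056, again the smallest possible, for the number and for the share. Without dTAG-13 replicate 1 the difference in number in EBF1-dTAG_N was -775.5 and without replicate 2 it was -2728.5, against -1752 with both. When each list was cut to its 34202 best peaks, the differences were -60 peaks in EBF1-dTAG_C and -247.5 in EBF1-dTAG_N. List length, relative depth and the number of gene-body peaks were all lower after dTAG-13 in both lines. Between the 2 libraries of an arm, the deeper one had fewer gene-body peaks in EBF1-dTAG_C and more in EBF1-dTAG_N. What part depth had in these numbers was not tested.

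**Figure D5:**
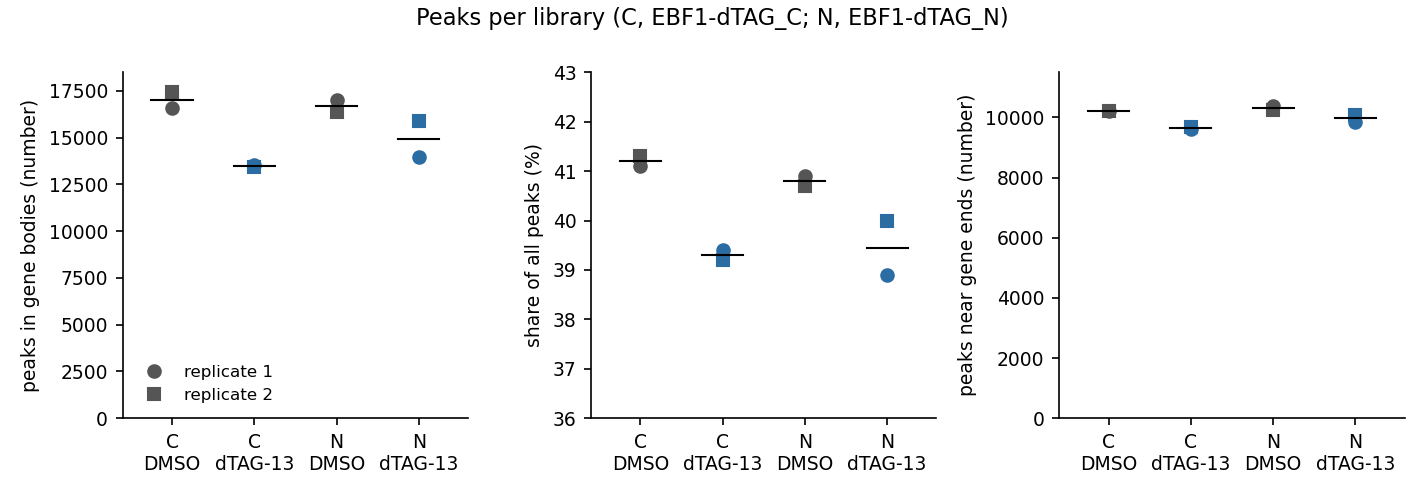
Number of peaks with a summit in a gene body (left), their share of all peaks in percent on an axis that starts above 0 (middle) and the number of peaks within 1 kb of a gene end (right), 1 point per library with the mean of 2 as a line. Gene-body peaks fell from 16617 and 17423 to 13552 and 13418 in EBF1-dTAG_C, while in EBF1-dTAG_N dTAG-13 replicate 2 (15906) lies close to the DMSO lists.

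By gene length the change in the number of peaks in EBF1-dTAG_C was -17.8% in genes under 20 kb and -22.9% in genes over 200 kb. In EBF1-dTAG_N the order was the opposite, with -14.9% and -7.5%. By distance from the gene end it was -18.0% at 1 to 5 kb and -24.8% over 100 kb in EBF1-dTAG_C, with -13.5% and -6.33% in EBF1-dTAG_N. In genes over 200 kb and at over 100 kb the DMSO and dTAG-13 libraries of EBF1-dTAG_N overlapped. The dependence on length and distance seen in the calls of EBF1-dTAG_N therefore was not seen in the numbers of its peaks, and the difference between the lines was not tested.

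Gene lists were described by their gene-body regions, beside 8.03% of gene-body regions falling and 0.362% rising in EBF1-dTAG_C, with 22.1% and 16.6% in EBF1-dTAG_N. The lists are descriptions and no list was tested. Among 30 targets of EBF1 and B lineage genes, 22 had gene-body regions, and 20 of 120 regions (16.7%) fell in EBF1-dTAG_C, with 40 of 135 (29.6%) in EBF1-dTAG_N, where 26 (19.3%) rose. Bst1, a surface enzyme of B cell progenitors, fell 2.65-fold and 2.13-fold by the authors' deposited tables, although its fold enrichments of 26.3 and 23.7 with DMSO overlapped 24.0 and 24.6 after dTAG-13. For B lineage transcription factors 21 of 296 (7.09%) and 82 of 343 (23.9%) fell, and 66 rose in EBF1-dTAG_N. Foxp1, a forkhead factor needed for early B cell development, held 60 and 70 regions, the largest number in 1 gene in both tables, of which 4 and 17 fell and 17 rose in EBF1-dTAG_N. Its region at chr6:99413499-99413917 read 29.8 and 26.2 against 8.11 and 5.32 in EBF1-dTAG_C and fell 8.41-fold by the authors' deposited table. Bach2, a repressor of plasma cell fate, had 4 of 33 and 10 of 27 falling. In Ikzf1, the gene of Ikaros, 0 of 13 and 2 of 17 fell and 6 rose in EBF1-dTAG_N.

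Of the pre-B cell receptor signalling genes 27 of 190 regions (14.2%) fell in EBF1-dTAG_C, with 57 of 184 (31.0%) in EBF1-dTAG_N, where 35 (19.0%) rose. Inpp5d, the inositol phosphatase SHIP1, had a region at chr1:87621795-87622297 that read 17.8 and 18.0 against 5.79 and 6.07, and 20.5 and 19.8 against 8.56 and 8.06. It fell 3.81-fold and 4.21-fold by the authors' deposited tables. Vav2, a guanine nucleotide exchange factor, had a region at chr2:27327033-27327383 with 22.3 and 27.3 with DMSO and no peak with dTAG-13 (falls of 7.58-fold and 10.1-fold by the authors' deposited tables). Plcg2, the phospholipase of this pathway, had 0 of 12 regions falling in EBF1-dTAG_C, with 2 of 12 in EBF1-dTAG_N.

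Chromatin regulators had 14 of 150 (9.33%) and 38 of 176 (21.6%) falling, and 27 (15.3%) rose in EBF1-dTAG_N. In Hdac7, a histone deacetylase, the region at chr15:97825874-97826248 went from 7.17 and 6.97, and 10.4 and 8.81, to no peak, with falls of 5.90-fold and 8.54-fold by the authors' deposited tables. The region of Arid1b, a BAF complex subunit, had a fall of 5.56-fold by the authors' deposited table of EBF1-dTAG_C.

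Long neuronal and adhesion genes had 12 of 151 (7.95%) and 32 of 145 (22.1%) falling, shares close to those of all gene-body regions. Of T and innate lymphoid markers 5 of 27 and 8 of 28 regions fell, in Tcf7 and Zap70 among others, and 1 rose in EBF1-dTAG_N. Myeloid markers had 1 of 17 falling in EBF1-dTAG_C, in Itgam, and 2 of 9 falling and 4 rising in EBF1-dTAG_N. Housekeeping genes had 0 of 12 and 1 of 15 falling, with 3 rising in EBF1-dTAG_N. Of the pro-B cell markers 5 of 44 (11.4%) and 8 of 49 (16.3%) fell, and 13 rose in EBF1-dTAG_N. Dntt, the terminal transferase of antigen receptor joining, had 4 regions in each table, of which 1 fell in each and the other 3 rose in EBF1-dTAG_N. The falling region read 6.43 and 3.45, and 4.80 and 6.58, with DMSO and had no dTAG-13 peak. It fell 2.89-fold and 4.57-fold by the authors' deposited tables, although neither line had a peak at the gene's ends in both DMSO lists.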

How the data were processed

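ATAC-seq peaks and regions of 8 libraries were used, 2 per line and treatment, grouped from the titles and treatment labels. The submitters' processing notes list edgeR 3.32.0, MACS2 2.2.7.1, deepTools 3.3.2, SAMtools 1.10 and Bowtie2 2.3.5.1 with the build GRCm38 (mm10), and give no role for any of them. Whether reads were filtered or Tn5 cut sites shifted is not given in the sources used here. Each library has 1 deposited peak list with a score, a fold enrichment (a ratio to local background) and −log10 p-values and q-values per peak. The deposited tables, 1 per line, hold the authors' log2 fold change, mean abundance as log2 CPM, F score, p-value and adjusted p-value per region, with no values per library, so no region was refitted and no error or n is attached to it. Repeated entries (8 in EBF1-dTAG_C, 12 in EBF1-dTAG_N) were counted once. Solving each deposited p-value for its F value gave median denominator degrees of freedom of 11.2 (EBF1-dTAG_C) and 110386 (EBF1-dTAG_N) over 2000 regions, so the latter pools the spread over regions.

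Gene spans (21887 protein-coding genes on chromosomes) and start windows came from RefSeq, GRCm38.p6. A region inside more than 1 gene (294 and 277 regions) was given the shortest. The members and the 10 gene lists (201 different genes) were chosen with earlier results of these data known. Named were the 6 falling and 6 rising regions per line with the smallest adjusted p, 1 per gene, the genes with most falls in both tables, the farthest falling regions, the longest genes, the first 3 regions of each list and, added after values were seen, the 12 regions overlapping a start window of the host gene with the smallest adjusted p among those that fell in both lines. Any other gene was named after its values were seen. Some of these genes and 1 of the lists are not reported here. A region's value in a library is the highest fold enrichment of a peak overlapping it by at least 1 bp. For numbers and shares of peaks, exact permutation tests over libraries were used, two-sided. What the labels call biological replicates may share a culture, so p-values measure only the spread between these libraries. Background pileup was solved with a relative tolerance of 1e-04. The position classes, centred calls, overlaps and pileups were tested on simulated data. Alternatives were other p and fold limits, centred folds, other distance limits, hosts and gene sets, other peak limits, equal list length, each library left out and a replicate block. Python 3.11.15, pandas 2.3.3, numpy 2.4.6, scipy 1.17.1 and matplotlib 3.10.9 were used. Region sequences were not analysed here beyond the start windows.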

Additional observations from a re-analysis of the deposited data

How the results depend on the processing

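Of the counts of gene-body regions, falls in EBF1-dTAG_C went from 1887 to 1183 at an adjusted p under 0.01, and rises from 85 to 5 at that limit, to 47 for changes of 1 or more on the log2 scale and to 46 with centred folds. Rises in EBF1-dTAG_N went from 3932 to 2397, 1404 and 2051 under the same settings. They went to 2607 when F was read against the degrees of freedom of EBF1-dTAG_C. Falls in EBF1-dTAG_N stayed between 3697 and 5772. By that reading of F, rises over all EBF1-dTAG_N regions went from 18.8% to 12.4% and falls from 18.5% to 16.3%. With centred folds, rises over all regions went from 0.308% to 0.162% in EBF1-dTAG_C and from 18.8% to 7.98% in EBF1-dTAG_N. Shares of all regions at an adjusted p under 0.01 are not given here. Among regions above the median abundance the difference by length was 6.33 and 11.2 points and that by distance 5.15 and 9.90 points in EBF1-dTAG_C and EBF1-dTAG_N, and the cause was not tested. Setting aside the regions that overlap a start window of any gene was chosen after seeing the data. Leaving out each library gave differences in gene-body peaks of -3938 to -3132 and in their share of -2.02 to -1.77 points in EBF1-dTAG_C, and of -2728.5 to -775.5 and -1.88 to -0.751 points in EBF1-dTAG_N. With equal list length the share differed by -0.175 and -0.724 points. With a replicate block the differences were -3535 peaks and -1.89 points in EBF1-dTAG_C and -1752 peaks and -1.31 points in EBF1-dTAG_N (exact permutation p = 0.500, the smallest it allows). The replicate numbers do not establish a pairing, since names inside the EBF1-dTAG_C peak lists carry other numbers than the titles. Read depth, which is unknown, limits all peak numbers.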
